A study of Mus musculus with 18 samples.

Results

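The type I interferon-stimulated genes examined here were 45 genes, chosen by name, out of 29875 genes in the deposited count table. Each symbol matched a single Ensembl gene. All 45 passed the filter on low counts, as did 13844 genes in total. RNA was sequenced in 18 libraries, 3 replicates in each of 6 groups. The cells were dendritic cells (DCs) grown with GM-CSF for 8 days from bone marrow of wild-type C57Bl6/J mice aged 8 to 12 weeks, and in every group, controls included, they had been matured with 200 ng/ml LPS for 24 hours. Of the groups, 4 held DCs in gels of 1.7, of 2.6, of 3.5, or of 4.4 mg/ml collagen with a CCL19 gradient, and 2 held DCs in the same kind of chamber without collagen (suspension). RNA was taken 5 hours after the gradient was introduced. The suspension groups are titled plus CCL19 and without CCL19, but the library names give the opposite states in each replicate, so these groups go by their titles here and nothing is drawn about CCL19. In the library names, each replicate number goes with 1 date and 1 lane. A culture grown with GM-CSF is a mixture, and these are bulk samples, so fewer cells of a type and less RNA per cell cannot be told apart.

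Type I interferons bind the receptor IFNAR1 and IFNAR2. The kinases JAK1 and TYK2 then activate STAT2, which acts with IRF9 at the interferon-stimulated response element (ISRE) in the promoters of target genes. LPS acts through TLR4 and the adaptors TICAM2 and TICAM1, among others, and induces interferon-β in DCs and macrophages, so mature DCs express many of these genes. Their products restrict virus entry, translation, and replication, sense nucleic acids, or, like USP18, limit the response itself.

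Short promoter stretches that hold an ISRE are shown for 5 members, 3 that were called higher at 4.4 mg/ml and 2 that were called lower over all collagen densities in the tests given later, since the element is what these genes are known to share. They were taken from RefSeq promoter windows (build GRCm38.p6) that run from 250 bases before to 50 bases after a start site. All 5 lie upstream of the start, read 5′ to 3′ along the gene's strand, and overlap no annotated exon. Capitals mark matches to the ISRE core GAAANNGAAA or its reverse complement, and matches may overlap. Isg15 lies at chr4:156200850-156200921 (minus strand), Oas1a at chr5:120907526-120907570 (minus), Ifit3 at chr19:34583348-34583441 (plus), Slfn5 at chr11:82951922-82951981 (plus), and Gbp7 at chr3:142530258-142530317 (plus).
Isg15: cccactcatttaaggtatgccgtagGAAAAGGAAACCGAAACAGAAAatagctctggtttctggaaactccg
Oas1a: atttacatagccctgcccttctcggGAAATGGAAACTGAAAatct
Ifit3: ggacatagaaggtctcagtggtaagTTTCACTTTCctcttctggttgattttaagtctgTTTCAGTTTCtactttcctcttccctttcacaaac
Slfn5: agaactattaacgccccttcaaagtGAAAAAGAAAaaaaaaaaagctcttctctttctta
Gbp7: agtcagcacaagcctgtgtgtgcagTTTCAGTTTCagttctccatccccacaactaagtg

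The core matched 3 times in the stretch of Isg15, with the first match at position −78 from the start site, 2 times each in Oas1a and Ifit3, and once each in Slfn5 and Gbp7. A window was found for 34 of the 45 members (40 windows), and 21 of these 34 members (61.8%) had an ISRE core on either strand, against 3.99% of all 27025 genes with a window. By window, 57.5% of the members' windows and 3.44% of all 32851 windows of the same length held the core. A second motif, the gamma-activated site TTCNNNGAA (its own reverse complement), was present in 8 members (23.5%, of which 6 also had an ISRE core) and in 9.55% of genes. Over all windows the share was 8.3%. A match describes letters and shows no binding. Among the members with a window, the core was found in 10 of the 17 called higher at 4.4 mg/ml against suspension in the test with replicates as a block, in 2 of the 3 called lower, and in 9 of the 14 not called.

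Total counts ranged from 13062944 to 28059839 per library, and the 45 members were counted between 7 and 41484 times in a library. Levels are given as CPM (read counts scaled to library size) after TMM scaling. At this depth a count of 3 corresponds to 0.0941 to 0.256 CPM, counting error only. The members lie on 15 chromosomes, with 8 of them on chromosome 11. The Ifit genes lie together on chromosome 19, the Oas and Oasl genes on chromosome 5, and the Gbp genes on chromosome 3. How reads that match several genes were counted is not given in the sources used here, so values of genes with near-identical neighbors (Ifit1, Ifit3, Oas1a, Ifi204, Ifi205, Phf11d, and the Slfn and Gbp genes) are uncertain.

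Per kilobase of exon, the highest mean levels over the 18 libraries were those of Bst2 (1215 CPM per kb), Ifi27l2a (934.7), and Isg15 (300.1), and the lowest was that of Gbp7 (1.15). BST2, or tetherin, holds budding virions at the cell surface. Its level in CPM ran from 354 to 1143 (median 652) in suspension and from 409 to 2830 (median 1013) in collagen, so the ranges overlapped. Ifi27l2a, a small interferon-induced gene, ran from 141 to 367 CPM (median 213.5) in suspension and from 186 to 1007 (median 381) in collagen.

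Many members were high in replicate 1 whatever the group. In the 2 suspension groups, 34 of the 45 members were higher in replicate 1 than in the mean of replicates 2 and 3, with a median difference of 0.76 on the log2 CPM scale. Over all tested genes that median was 0.043, and 52.0% were higher. The difference was widest for Rsad2 (23.3-fold), which encodes viperin, followed by Ifit2 (10.5-fold) and Mx2 (7.1-fold). Gbp5, a guanylate-binding protein, differed the other way and was 2.98-fold lower in replicate 1. For 6 members (Ifit1, Rsad2, Cmpk2, Rtp4, Ddx58, and Daxx), all 6 replicate 1 libraries were above the other 12, against 1.86% of all tested genes. Comparisons are therefore given both without and with the replicate number as a block, which compares groups within replicates. The biological coefficient of variation was 48.95% without the block and 33.11% with it.

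**Figure D1:**
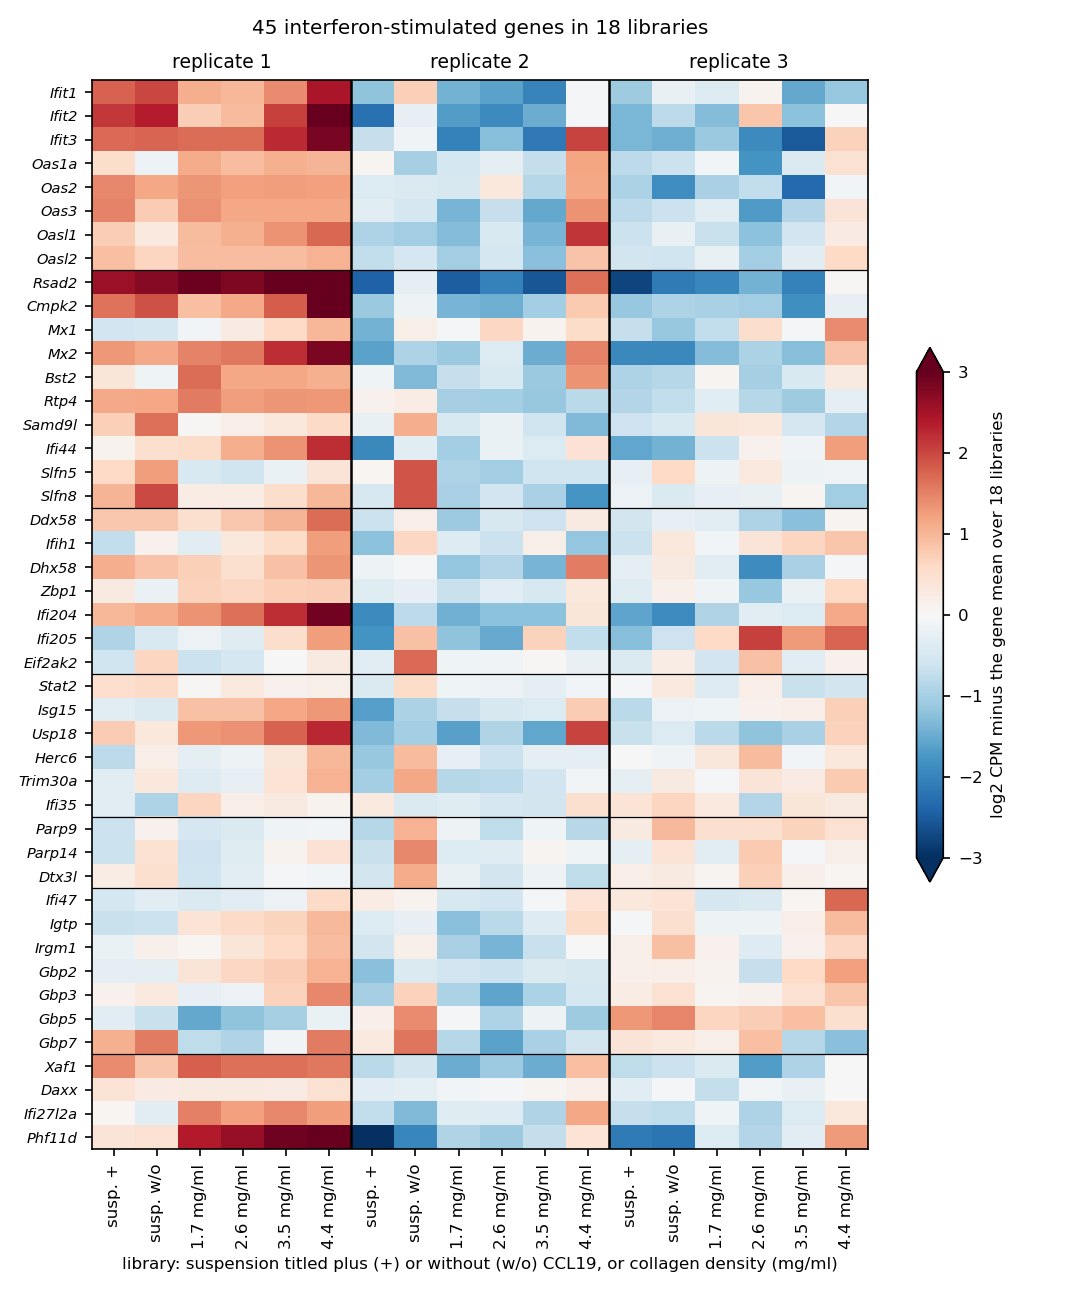
Each row is a member, ordered by role and divided by thin lines, and each column a library, ordered by replicate and then by group. Color gives log2 CPM minus the gene's mean over 18 libraries, and colors saturate at the ends of the scale. Replicate 1 is red for most rows, the rightmost column of each replicate (4.4 mg/ml) is redder than its neighbors in many rows, and the row of Gbp5 runs the other way.

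The median over the 45 members of this deviation from the gene's mean gives a level for each library. In replicate 1 it was 0.41 and 0.46 in the suspension groups and 0.56, 0.62, 0.74, and 1.17 along the density series from 1.7 to 4.4 mg/ml. For replicate 2 it was −0.69 and −0.11 in suspension, then −0.91, −0.65, −0.68, and 0.31. Replicate 3 gave −0.62 and −0.23 in suspension, then −0.31, −0.34, −0.33, and 0.32. The library at 4.4 mg/ml was the highest of its replicate in each of the 3, while 1.7 to 3.5 mg/ml stayed within or below the suspension values in replicate 2 and within them in replicate 3. The same median over all tested genes lay between −0.049 and 0.097 in the 18 libraries.

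**Figure D2:**
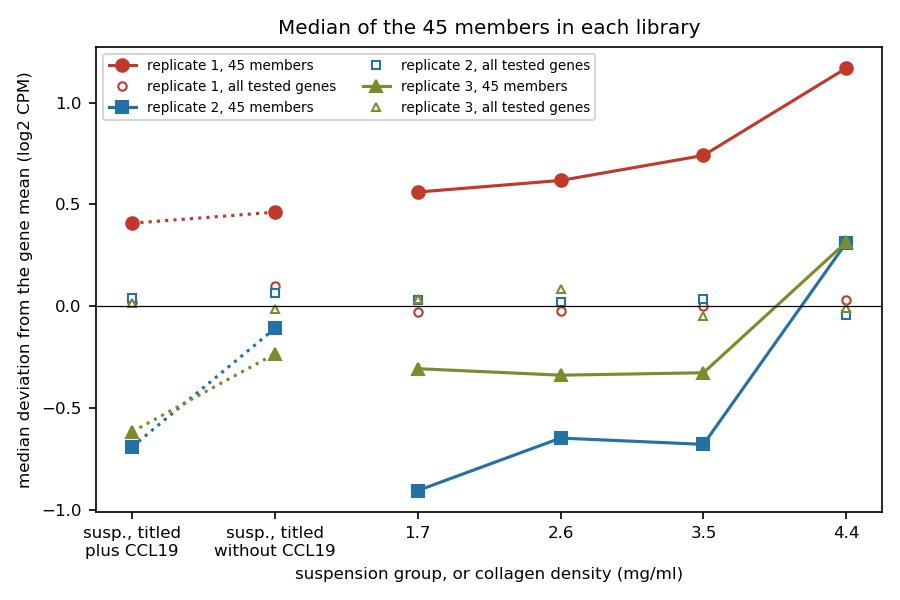
Filled points are the median over the 45 members of log2 CPM minus the gene mean, by suspension group or collagen density and by replicate, and open points the same over all tested genes. In each replicate the highest filled point is that of 4.4 mg/ml, at 1.17, 0.31, and 0.32.

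Collagen gels as a whole were first compared with suspension, the question being which members differ once DCs are inside a matrix. Without the block, 5 members rose (Mx1, Isg15, Ifi205, Ifi27l2a, and Phf11d) and 2 fell (Slfn5 and Gbp7) at a false discovery rate (FDR) of 0.1 in edgeR's quasi-likelihood test. This was 11.1% and 4.44% of the members, against 7.78% of all tested genes higher and 12.4% lower. The median log2 fold change was 0.12 over the members and 0.0027 over all tested genes, and 26 of the 45 values were above 0. With the block, 10 members rose and 7 fell, against 15.6% of genes higher and 19.3% lower. With the block the members' shares were 22.2% and 15.6%, so the first was above and the second below that of all genes, and the called members went in both directions. Within replicates, 11 members were higher in collagen in 3 of 3 replicates and 8 were lower, against 24.3% and 26.7% of all tested genes. In the fit without the block, leaving out replicate 2 left 2 calls, both higher (Ifi205 and Mx1, 4.44%), against 1.54% of genes higher and 2.93% lower. Without replicate 3 there were 3 (Mx1 higher, Gbp7 and Slfn5 lower, 2.22% and 4.44%), against 3.61% and 6.87%. Without the replicate 2 library of suspension titled without CCL19 there were 4 (6.67% higher and 2.22% lower), against 6.39% and 9.24% of genes.

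The 3 libraries at 4.4 mg/ml were then compared with suspension alone. Without the block, 6 members rose (Mx1, Ifi44, Isg15, Ifi47, Igtp, and Ifi27l2a) and 0 fell. Among all tested genes 6.55% were higher and 8.29% lower in the same fit, so the share of members that rose, 13.3%, was above the first and the share that fell below the second. There 16 of 45 members had an unadjusted p under 0.05, against 3434 of 13844 genes. DESeq2 without the block called 12 members higher (26.7%) and 0 lower, against 9.55% and 10.7% of genes. In edgeR with the block, 25 of 45 members rose (55.6%) and 3 fell (Samd9l, Slfn5, and Slfn8), against 15.8% and 16.2% of all tested genes. The median log2 fold change of the members was 0.76 without and 0.92 with the block, and that of all tested genes 0.0051 and 0.019. In 25 members the 4.4 mg/ml library was above the suspension mean in 3 of 3 replicates, against 23.9% of all tested genes. In 16 members it was the highest of the 6 libraries of its replicate in all 3 replicates, against 2.29% of genes. For 5 members (Mx1, Zbp1, Isg15, Igtp, and Ifi27l2a) all 3 libraries at 4.4 mg/ml were above all 6 suspension libraries, against 4.93% of genes. In replicates 2 and 3 the 4.4 mg/ml library also had the highest sum of 12 macrophage and monocyte markers (7774 and 2792 CPM), whose part in these values was not tested.

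These counts depended on single replicates, as did the share of all tested genes that was called. Without the block, 18 members (40.0%) rose at 4.4 mg/ml when replicate 1 was left out, against 7.28% of genes. Leaving out replicate 2 or replicate 3 gave 1 (Mx1, 2.22%), against 0.539% and 3.54% of genes. With the block, the number that rose stayed between 20 and 29 in 5 such fits, against 10.4% to 15.5% of genes. These fits left out a replicate, the 4.4 mg/ml replicate 2 library, or the replicate 2 library of suspension titled without CCL19. The latter 2 fits, and that without replicate 2, called 0 members lower, against 12.6%, 13.8%, and 9.29% of genes. In the blocked fit and in all 5 that left out a replicate or library, 16 members were called higher: Ifit3, Oas1a, Oasl1, Oasl2, Rsad2, Cmpk2, Mx1, Mx2, Bst2, Ifi44, Ifi204, Isg15, Usp18, Igtp, Ifi27l2a, and Phf11d. The share of all genes called higher in every one of these fits is not given here.

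**Figure D3:**
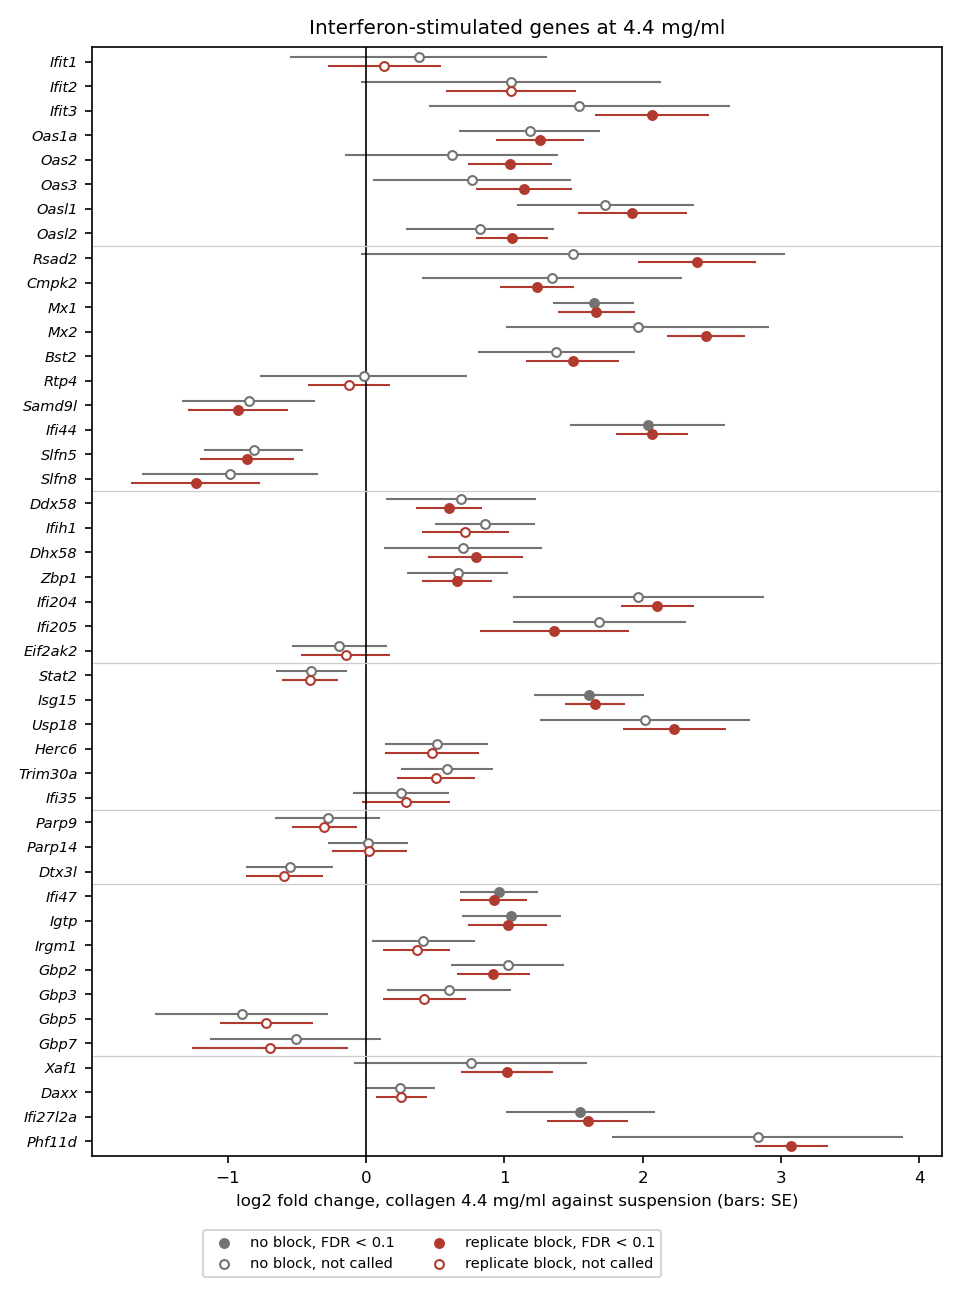
Points are log2 fold changes of each member at 4.4 mg/ml against suspension, bars their SE, gray without and red with the replicate block, filled where FDR is below 0.1. With the block 25 points are filled to the right of 0 and 3 to the left, and the widest gray bar is that of Rsad2.

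Fewer members were called at the lower densities. At 1.7 mg/ml 0 members were called by edgeR without the block, with 0.0361% of all tested genes called. With the block Phf11d rose and Slfn5 fell, against 2.91% of genes. Without the block 3 of 45 members had an unadjusted p under 0.05 in edgeR, against 1113 of 13844 genes. DESeq2 without the block called 1 (2.22%), against 1.02% of genes. At 2.6 mg/ml Mx1 rose without the block (7.87% of genes were called), and with it 5 members rose and 3 fell (21.6% of genes). At 3.5 mg/ml 0 members were called by edgeR without the block (4.9% of genes called), and with it 5 rose and 3 fell (18.4% of genes). Without the block 6 of 45 members had an unadjusted p under 0.05 in edgeR, against 2437 of 13844 genes. DESeq2 without the block called 3, against 9.7% of genes. These comparisons and that at 4.4 mg/ml share the 6 suspension libraries. Their median log2 fold changes over the members, with the block, were −0.12, −0.07, and −0.063 at 1.7, 2.6, and 3.5 mg/ml.

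Among the IFIT and OAS effectors, which bind foreign RNA or make the second messenger that activates RNase L, 6 of 8 rose at 4.4 mg/ml in edgeR with the block (Ifit3, Oas1a, Oas2, Oas3, Oasl1, and Oasl2) and were not called in the same fit without it. Oas2 at 4.4 mg/ml was just below the suspension mean in replicate 1 (log2 difference −0.0752) and above it in replicates 2 and 3. Oasl1, an OAS-like protein without synthetase activity that restrains Irf7 translation, measured 856, 1151, and 309 CPM in replicates 1, 2, and 3 at 4.4 mg/ml. In suspension its values were 430.2, 137, and 166 (titled plus CCL19) and 319, 126, and 221 (titled without). The replicate 3 value at 4.4 mg/ml lay inside the range of suspension, and it was above both suspension libraries of its own replicate. The log2 fold change was 1.93 ± 0.39 (SE, n = 3 against 6) with the block (FDR 0.0021) and 1.73 ± 0.64 without (FDR 0.101), where DESeq2 called it. Oas1a, a 2′-5′-oligoadenylate synthetase, ran from 125 to 359 CPM (median 189.6) in suspension and measured 503, 568, and 339 at 4.4 mg/ml, 1.26 ± 0.32 higher on the log2 scale with the block (FDR 0.0085). Over all collagen libraries Oas1a ran from 71.3 to 568 CPM (median 287), and the comparison with suspension gave 0.63 ± 0.38 without the block (FDR 0.30).

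Ifit3, which stabilizes IFIT1 on RNA caps, measured 40.8, 23.3, and 9.14 CPM at 4.4 mg/ml. In suspension it was 18.5, 3.43, and 2.12 (titled plus CCL19) and 19.1, 5.19, and 1.97 (titled without), so each replicate's library at 4.4 mg/ml was above both of its suspension libraries although the pooled ranges overlapped. With the block the log2 fold change was 2.07 ± 0.41 (FDR 0.0017), and without it 1.54 ± 1.09 (FDR 0.40). Ifit2 ran from 0.501 to 14.5 CPM (median 1.94) in suspension and from 0.651 to 27.7 (median 2.72) in collagen. At 4.4 mg/ml its blocked log2 fold change was 1.05 ± 0.47 (FDR 0.11). Ifit1 gave 0.13 ± 0.41 there.

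**Figure D4:**
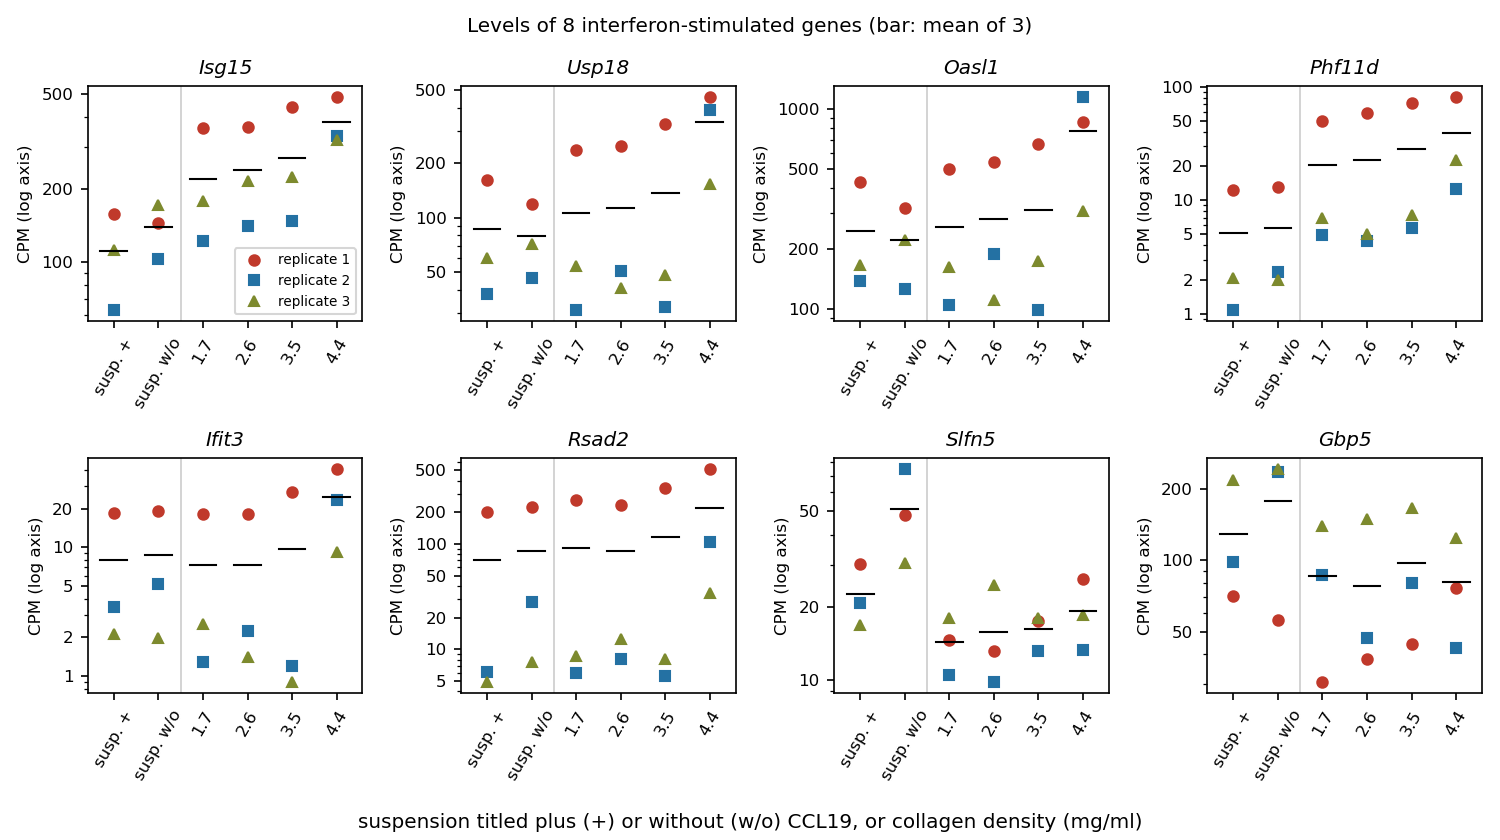
CPM on a log axis for 8 members, by suspension group or collagen density, with a symbol for each replicate and a bar for the mean of 3. Of these, Rsad2 was chosen after its values were seen. Within replicates the 4.4 mg/ml point of Isg15, Usp18, Oasl1, Phf11d, Ifit3, and Rsad2 is above both suspension points, and for these 6 genes replicate 1 is the highest of the 3 in most columns.

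In the second group, MX, viperin, and other antiviral effectors, 2 of 10 rose at 4.4 mg/ml without the block (Mx1 and Ifi44), and with it 6 rose and 3 fell. Mx1, a gene of the dynamin-like GTPase family, had 214.5, 158, and 288 CPM at 4.4 mg/ml and from 40.6 to 123 in suspension, with no overlap. Whether these cells make a working protein from Mx1 RNA was not tested. The log2 fold change of Mx1 was 1.65 ± 0.29 without the block (FDR 0.0032). Mx1 was called higher in all 5 fits without the block, and all 5 with it, that left out a replicate or library. Ifi44 measured 41.2, 11.8, and 20.98 CPM at 4.4 mg/ml. In suspension it was 9.45, 2.22, and 2.91 (titled plus CCL19) and 12.25, 6.83, and 3.19 (titled without), so replicate 2 at 4.4 mg/ml overlapped replicate 1 in suspension. It rose by 2.04 ± 0.56 (FDR 0.032) without the block.

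Cmpk2, a mitochondrial nucleotide kinase next to Rsad2 on chromosome 12, had 93.2, 17.8, and 8.74 CPM at 4.4 mg/ml and 32.0, 4.72, and 4.61 (titled plus CCL19) and 39.2, 9.25, and 5.39 (titled without) in suspension. Its blocked log2 fold change was 1.24 ± 0.27 (FDR 0.0033). Rsad2 had 519, 105, and 34.2 CPM at 4.4 mg/ml and from 4.86 to 222 in suspension, with a blocked log2 fold change of 2.39 ± 0.43 (FDR 0.00074) and an unblocked value of 1.496 ± 1.53 (FDR 0.58).

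Slfn5, a Schlafen family gene of the same group, went the other way. It measured 30.35, 20.8, and 16.9 CPM in suspension titled plus CCL19 and 48.2, 75.1, and 30.5 in suspension titled without, against 9.76 to 26.3 (median 16.0) in the 12 collagen libraries. Collagen was lower by a log2 fold change of −1.06 ± 0.24 (n = 12 against 6, FDR 0.009), and in 3 of 3 replicates. Without replicate 2 it was no longer called in the fit without the block. Slfn8, of the same family, and Samd9l, a restriction factor of poxviruses, were called lower in collagen with the block, at −1.05 ± 0.31 (FDR 0.017) and −0.58 ± 0.24 (FDR 0.086). The call of Samd9l was lost in 4 of the 5 blocked fits that left out a replicate or library, and that of Slfn8 without replicate 2 or the replicate 2 library of suspension titled without CCL19.

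The 7 nucleic acid sensors include the RIG-I-like receptors and the DNA-binding PYHIN proteins. Of them 5 rose at 4.4 mg/ml in edgeR with the block (Ddx58, Dhx58, Zbp1, Ifi204, and Ifi205) and were not called in the same fit without it, where DESeq2 called Ifi205. Ifi204, a PYHIN protein, measured 167, 28.9, and 49.8 CPM at 4.4 mg/ml. In suspension the values were 44.8, 5.87, and 7.47 (titled plus CCL19) and 48.8, 13.0, and 5.97 (titled without). Each 4.4 mg/ml library was above its own replicate's suspension libraries, and the blocked log2 fold change was 2.11 ± 0.27 (FDR 5.4e-05), against 1.97 ± 0.91 without the block (FDR 0.19). Ifi205 ran from 4.51 to 29.6 CPM (median 9.46) in suspension and from 5.57 to 66.75 (median 23.8) in collagen. It rose over all densities by 1.27 ± 0.49 without the block (FDR 0.095) and missed the threshold with it (0.94 ± 0.41, FDR 0.1017). Ddx58, which encodes RIG-I, rose by 0.60 ± 0.24 at 4.4 mg/ml with the block (FDR 0.073), and Ifih1, which encodes MDA5, gave 0.72 ± 0.31 (FDR 0.105).

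Isg15 and Usp18 led the group of STAT2, the ubiquitin-like protein ISG15, and ubiquitin ligases. Isg15, which is coupled to target proteins, measured 157, 62.7, and 112 CPM in suspension titled plus CCL19 and 145, 102, and 172.5 in suspension titled without. From the lowest to the highest density it was 361, 363, 439.9, and 485.5 in replicate 1, 121, 141, 147, and 333 in replicate 2, and 179, 216, 224, and 322 in replicate 3. In all 3 replicates each collagen library was above both suspension libraries of that replicate. The log2 fold change of collagen against suspension was 1.13 ± 0.31 (FDR 0.024), and at 4.4 mg/ml alone it was 1.61 ± 0.40 (FDR 0.019), both without the block. Usp18, the protease that removes ISG15 and restrains IFNAR2, had 460.5, 389, and 153 CPM at 4.4 mg/ml. In suspension it had 161, 38.1, and 60.1 (titled plus CCL19) and 119, 46.8, and 71.2 (titled without), and at 1.7 to 3.5 mg/ml the replicate 2 and 3 libraries lay between 31.0 and 54.5. It rose at 4.4 mg/ml by 2.23 ± 0.37 with the block (FDR 0.00047), while the unblocked value of 2.02 ± 0.76 missed the threshold (FDR 0.11). Stat2 itself was lower in collagen with the block (−0.37 ± 0.14, FDR 0.053), a call that was lost in 4 of the 5 blocked fits that left out a replicate or library and kept without the 4.4 mg/ml replicate 2 library. In edgeR's fits of all 18 libraries, without the block or with the block alone, Herc6, Trim30a, and Ifi35 were not called in any of the 8 comparisons. DESeq2 with the block called Trim30a higher in the slope with density and at 4.4 against 1.7 mg/ml and called it between the suspension groups, and the block with GC and length offsets called Herc6 higher at 4.4 mg/ml.

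The PARP and DTX3L group, 2 ADP-ribosyltransferase family members and the ubiquitin ligase DTX3L that pairs with PARP9, did not rise at 4.4 mg/ml in either fit (0 of 3). Dtx3l ran from 39.1 to 123 CPM (median 67.8) in suspension and from 33.4 to 93.2 (median 52.6) in collagen, and was lower with the block (−0.47 ± 0.19, FDR 0.073), a call that was lost without replicate 1, replicate 2, or the replicate 2 library of suspension titled without CCL19. Parp9 ran from 33.3 to 123.5 (median 69.2) and from 33.7 to 95.2 (median 54.9), with overlapping ranges and no call.

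Of the interferon-inducible GTPases, which act on pathogen vacuoles and inflammasomes, Ifi47 and Igtp rose at 4.4 mg/ml without the block (0.96 ± 0.28, FDR 0.043, and 1.05 ± 0.36, FDR 0.078), and Gbp2 also with it (0.92 ± 0.26, FDR 0.017). Gbp7 and Gbp5, also guanylate-binding proteins, were lower in collagen. Gbp7 measured 10.7, 6.22, and 6.64 CPM in suspension titled plus CCL19 and 15.0, 15.5, and 6.20 in suspension titled without, against 1.59 to 15.2 (median 2.84) in collagen, whose top value came from 4.4 mg/ml replicate 1. Collagen was lower by −1.13 ± 0.42 on the log2 scale (FDR 0.083), a call that was lost without replicate 1, without replicate 2, and without either single library left out. Gbp5 ran from 55.9 to 243 CPM (median 158) in suspension and from 30.5 to 166 (median 78.4) in collagen, and was called lower with the block (−0.83 ± 0.22, FDR 0.011).

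Among cell death and other genes, Phf11d, a PHD finger gene, had the largest fold change of the 45 members in collagen against suspension. It measured 12.4, 1.07, and 2.08 CPM (titled plus CCL19) and 12.9, 2.32, and 1.97 (titled without) in suspension. From the lowest to the highest density, replicate 1 gave 49.4, 58.3, 71.9, and 81.5, replicate 2 gave 4.95, 4.34, 5.69, and 12.55, and replicate 3 gave 7.04, 5.05, 7.45, and 22.8. Every collagen library was above the suspension libraries of the same replicate, and replicate 1 was the highest of each group. Collagen was higher by 2.29 ± 0.87 on the log2 scale without the block (FDR 0.092) and 2.15 ± 0.21 with it (FDR 6e-06). Phf11d was also the member called higher at all 4 densities with the block. Ifi27l2a measured 843, 789, and 438 CPM at 4.4 mg/ml, above all suspension libraries, and rose there by 1.55 ± 0.54 without the block (FDR 0.082). Xaf1, an antagonist of apoptosis inhibitors, rose with the block (1.02 ± 0.33, FDR 0.034), and Daxx gave 0.26 ± 0.19.

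Along the density series 0 members had a slope past the threshold in edgeR without the block, where 0.00722% of tested genes were called. In that fit 7 of 45 members had an unadjusted p under 0.05, against 997 of 13844 genes. DESeq2 called 1 member (2.22%), against 0.881% of genes. Of the 45 slopes, 41 were above 0, with a median of 0.28 log2 units per mg/ml, against 50.5% of genes and a median of 0.0027. A linear slope does not by itself show a graded rise. With the block the members' median log2 fold changes against suspension were −0.12, −0.07, −0.063, and 0.92 from 1.7 to 4.4 mg/ml. In replicate 1 alone the members' median level rose at each density. The steepest unblocked slopes were those of Ifit2 (0.82 ± 0.48 per mg/ml), Cmpk2 (0.75 ± 0.41), and Ifit3 (0.63 ± 0.47). In replicate 1, Cmpk2 was 19.3, 22.7, 36.5, and 93.2 CPM from 1.7 to 4.4 mg/ml, Ifit2 4.70, 5.46, 11.7, and 27.7, and Ifit3 18.26, 18.25, 26.9, and 40.8. The replicate 2 libraries of Ifit3 gave 1.28, 2.24, 1.19, and 23.3, so there the rise stood at the last density alone. With the block 10 members had a rising slope (Ifi204, Ifi44, Oasl1, Usp18, Phf11d, Ifi47, Rsad2, Cmpk2, Mx2, and Ifit3) and 0 a falling slope, against 0.802% and 0.65% of all tested genes. That is 22.2% of the members. Without the 4.4 mg/ml replicate 2 library 4 of the 10 were still called (Ifi204, Ifi44, Ifi47, and Mx2), against 0.223% of genes. Without replicate 1 or without replicate 2, 0 members and 0.0% of all tested genes were called. No loss particular to the members can be read there.

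The ends of the series were also compared directly. Between 4.4 and 1.7 mg/ml 0 members were called by edgeR without the block (0.00722% of genes), and the members' median log2 fold change was 0.75. In that fit 5 of 45 members had an unadjusted p under 0.05, against 1061 of 13844 genes. DESeq2 called 2 (4.44%), against 1.06% of genes. In edgeR with the block 11 members were higher at 4.4 mg/ml (24.4%) and 0 lower, against 1.12% and 0.607% of genes. They were the 10 with a rising slope and Mx1 (1.32 ± 0.34, FDR 0.081). Without replicate 2, 0 members and 0.0% of genes were called. Without the 4.4 mg/ml replicate 2 library, 4 members were called higher, against 0.223% of genes.

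The suspension groups gave no member past the threshold in edgeR, without or with the block, where 0.0% of all tested genes were called in either fit. At an unadjusted p under 0.05 there were 7 of 45 members without the block and 15 with it, against 855 and 1960 of 13844 genes. DESeq2 with the block called 6, all lower in the group titled plus CCL19 (Ifih1, Trim30a, Slfn5, Parp14, Parp9, and Eif2ak2), against 1.03% of genes. The 3 largest differences were those of Eif2ak2, the RNA-activated kinase PKR, Ifi205, and Parp14. Eif2ak2 measured 9.15, 10.9, and 10.3 CPM in suspension titled plus CCL19 and 21.7, 44.9, and 16.1 in suspension titled without, with no overlap. Parp14 had 44.1, 43.1, and 56.6 CPM against 93.5, 186, and 90.7, and Ifi205 had 8.48, 4.51, and 6.47 against 11.7, 29.6, and 10.4, also with no overlap. For all 3 genes the highest value came from the replicate 2 library of suspension titled without CCL19. The log2 differences, plus minus without, were −1.44 ± 0.40, −1.36 ± 0.34, and −1.41 ± 0.77 for Eif2ak2, Parp14, and Ifi205 (FDR 0.76 each).

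Members were also alike to different degrees over the 18 libraries. The closest pair was Oasl1 and Usp18 (Pearson's r = 0.984 of log2 CPM over 18 libraries), followed by Oas3 and Xaf1 (0.972) and Oas3 and Oasl2 (0.97). The median over 990 pairs was 0.417. Mx2 had the highest median r with the other members (0.751), and Gbp5 the lowest (−0.41). These libraries share replicate dates, so the values describe the members' pattern over replicates as much as over groups.

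The ligands of the pathway were barely detected. Of 18 interferon genes listed, 8 were in the table, and Ifnb1 (interferon-β) alone passed the filter, with 0 to 0.811 CPM in suspension and 0 to 0.847 in collagen and no call. Of the 14 receptor, JAK, and STAT components, 2 fell and 0 rose in collagen against suspension without the block (median log2 fold change −0.15), against 12.4% and 7.78% of all tested genes. With the block 4 fell (Tyk2, Ifngr1, Irf9, and Ptpn6) and 2 rose (Jak1 and Ifnar2), against 19.3% and 15.6% of genes. Tyk2, the kinase bound to IFNAR1, had 242 to 537 CPM (median 407) in suspension and 137.5 to 258 (median 194) in collagen, with overlapping ranges (−1.01 ± 0.19, FDR 0.003), and Ifngr1, a chain of the interferon-γ receptor, gave −0.69 ± 0.23 (FDR 0.056). Ifnar2 rose at 4.4 mg/ml (0.89 ± 0.28, FDR 0.056), where 1 of the 14 rose and 2 fell, against 6.55% and 8.29% of genes.

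Among 15 genes upstream of interferon, 2 rose (Tlr7 and Myd88) and 4 fell (Tlr9, Ticam2, Mavs, and Irf3) in collagen without the block, against 7.78% and 12.4% of all tested genes, with a median log2 fold change of −0.044. With the block 5 rose (adding Tlr4, Irf7, and Tbk1) and 5 fell (adding Ikbke), against 15.6% and 19.3% of genes, with a median of 0.07. Tlr9, the endosomal DNA receptor, was 19.2 to 74.7 CPM (median 37.6) in suspension and 0.939 to 16.99 (median 9.04) in collagen, with no overlap (−2.16 ± 0.33, FDR 0.001). Ticam2, the adaptor TRAM, and Mavs, the adaptor of RIG-I-like receptors, changed by −1.19 ± 0.22 and −0.87 ± 0.13. Myd88, an adaptor of most Toll-like receptors, rose by 0.65 ± 0.16 (FDR 0.012), and Tlr7, a receptor for RNA, by 1.15 ± 0.35 (FDR 0.04). Irf7, the factor for interferon-α transcription that is itself interferon-induced, ran from 844 to 3668 CPM in suspension and from 633.5 to 6497 in collagen, and was called at 4.4 mg/ml with the block (1.63 ± 0.38, FDR 0.0053).

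A further 96 interferon-stimulated genes were listed, of which 92 were tested. At 4.4 mg/ml 9 rose and 3 fell without the block, against 6.55% and 8.29% of all tested genes. With the block 40 rose and 7 fell there, against 15.8% and 16.2% of genes. Their median log2 fold change there was 0.65 without the block, beside 0.76 for the 45 members. In collagen against suspension 4 rose and 8 fell without the block, beside 7.78% and 12.4% of all tested genes. With the block 20 rose and 13 fell, beside 15.6% and 19.3%. Those with the largest changes among the calls without the block were Il15, the cytokine for NK and memory T cells (1.33 ± 0.23, FDR 0.002), Casp4, the sensor of cytosolic LPS (1.29 ± 0.30, FDR 0.01), Slfn9 (−1.39 ± 0.39, FDR 0.027), and Ifi211 (1.16 ± 0.44, FDR 0.095). The near-identical neighbors Oas1g and Ifit3b gave 1.61 ± 0.34 and 1.44 ± 0.51 at 4.4 mg/ml with the block.

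Markers of other cell types moved with some of these values. The 12 macrophage and monocyte markers summed to 4411 to 7952 CPM in replicate 1, to 1354 to 7774 in replicate 2, and to 973 to 2792 in replicate 3. The highest library of replicate 2 (7774) and of replicate 3 (2792) was that at 4.4 mg/ml, and in replicate 1 the 4.4 mg/ml library, where the members were highest, had 5856, less than the other 3 collagen libraries. At 4.4 mg/ml against suspension 1 of the 12 rose without the block (Marco) and 8 with it, against 6.55% and 15.8% of genes. All 8 tested eosinophil markers fell in collagen, from a sum of 118 to 1360 CPM in suspension to 14.1 to 169.5, and 3 of 10 neutrophil markers fell. Of 9 plasmacytoid DC markers 8 were in the table and 6 were tested, and their sum without the member Bst2 ran from 1264 to 2089 CPM in suspension and from 1420 to 3430 in collagen. Irf8, which other DCs also express, was 1232 to 2058 CPM of this in suspension. In collagen Spib fell in both fits and Bst2, Irf8, and Tcf4 rose with the block, while Siglech and Ccr9 were at or near 0 (at most 0.232 and 0.2705 CPM). The T cell and NK cell markers summed to at most 1.34 CPM. The 15 DC markers summed to 32970 to 115400 CPM, with medians of 45450 in replicate 1, 71990 in replicate 2, and 98740 in replicate 3. The macrophage and monocyte medians ran the other way, at 6418, 2929, and 1476. The part of either in the members' values was not tested.

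**Figure D5:**
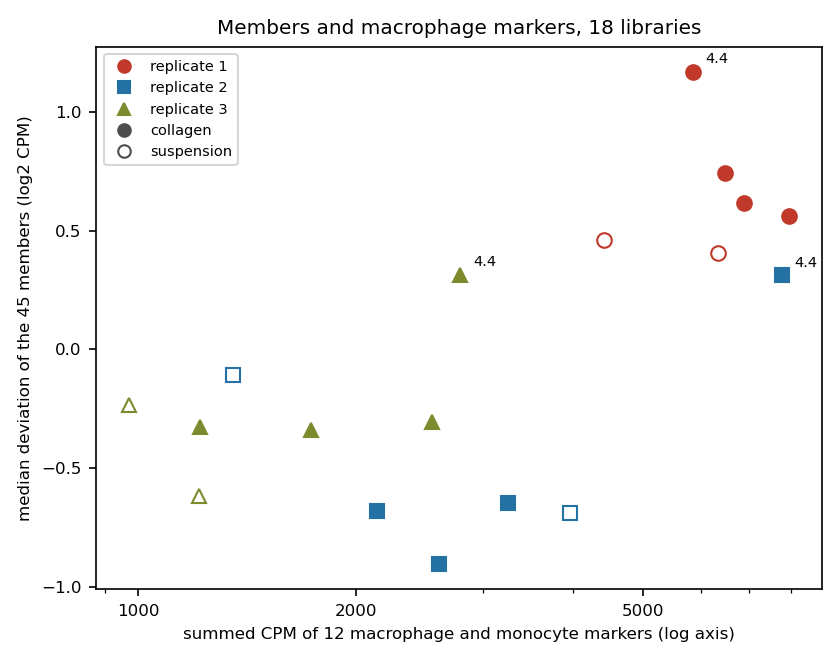
Each point is a library, with the summed CPM of 12 macrophage and monocyte markers on a log axis and the median deviation of the 45 members on the other, collagen filled and suspension open. Replicate 1 lies at the upper right, the 3 libraries at 4.4 mg/ml are marked, and the 4.4 mg/ml library of replicate 3 has 2792 CPM of markers at a member median of 0.32.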

How the data were processed

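RNA-seq libraries (TruSeq Stranded mRNA, HiSeq 2000, single-end reads of 50 bases) were made from 18 samples. Per the labels and the study's methods, reads were aligned with STAR 2.7.0f to GRCm38. The authors deposited a single table of raw read counts per Ensembl gene, not normalized. The study's methods name RSEM for TPM values, which were not used here, and do not say whether it made these counts. The counting tool and its treatment of reads with several matches are not given in the sources used here. Groups came from the sample titles.

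Counts were tested with edgeR 4.0.16 (R 4.3.3): filterByExpr, TMM scaling, and the quasi-likelihood F-test, in a single fit over the 6 groups without a block, with Benjamini-Hochberg FDR over 13844 genes and a threshold of 0.1. Log2 CPM used a prior count of 2. Density was tested as a linear slope over 4 group means. The script was tested on simulated data. Replicate numbers marked a shared date and lane in the library names: deviations from group means correlated at 0.434 on average in 45 pairs with the same number (−0.149 to 0.846) and at −0.214 in 90 pairs with different numbers. Each gene's deviations within a group cancel out, so the negative value follows largely from the positive one. Only the positive value bears on the block. Values with the number as a block therefore stand beside those without. The sample titles call these biological replicates. The sources used here do not say whether each came from a separate animal, so p-values measure the spread between these samples.

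Alternatives were DESeq2 1.42.0 (with and without the block), its size factors in edgeR, no filter, FDR 0.05, GC and length offsets, and leaving out each replicate. Leaving out single libraries, and the blocked versions of these fits, were chosen after seeing the data. Total counts of 13062944 to 28059839 set the precision. The members and gene lists were chosen with earlier results of these data known. Members described library by library were the 2 with the largest change between collagen and suspension in each of 7 role lists, and the 3 each with the steepest slope, the largest difference between the suspension groups, and the highest level per length. Other members are named where a test called them or after their values were seen.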

Additional observations from a re-analysis of the deposited data

Results flagged for a closer look

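In the 6 suspension libraries, the replicate 2 library titled without CCL19 stood apart from the other 5 for 3 of the 20 members that were described library by library. Its gap to the nearest library was 0.714 of the whole range for Ifi205 (29.57 CPM), 0.65 for Eif2ak2 (44.92 CPM), and 0.647 for Parp14 (185.9 CPM), each above Dixon's critical value for 6 samples. Chance alone gives such a gap in about 1 in 20 groups. These 3 genes were also the ones described for their difference between the suspension groups, so the same library enters both descriptions.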

How the results depend on the processing

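Counts of members called at FDR 0.1 rested on the replicate block more than on any other choice tried. For collagen against suspension, 7 members were called, and 3 at FDR 0.05, 17 with the block, 19 in DESeq2 with the block, 15 with no filter on low counts, and 20 with the block plus GC and length offsets. At 1.7 mg/ml the count of 0 became 2, 1 (DESeq2), 4 (DESeq2 with block), 1 (no filter), and 2 (block with offsets). The share of genes, 0.0361%, became 2.91%, 1.02%, 7.91%, 0.264%, and 4.64% in the same order. At 2.6 mg/ml the count of 1 became 0 at FDR 0.05, 8 with the block, 2 in DESeq2, 10 in DESeq2 with block, 2 with DESeq2 size factors, 4 with no filter, 2 with offsets, and 16 with block and offsets. From the block on, the share of genes, 7.87%, became 21.6%, 13.2%, 26.5%, 7.97%, 4.11%, 8.23%, and 24.4% in that order. At 3.5 mg/ml the count of 0 became 8, 3, 10, 5 (no filter), 2 (offsets), and 10 (block with offsets), and the share of genes, 4.9%, became 18.4%, 9.7%, 23.1%, 2.36%, 4.46%, and 18.4%. At 4.4 mg/ml the count of 6 became 28, 12, 30, 10 (size factors), 18 (no filter), and 32 (block with offsets), and the share of genes, 14.8%, became 31.9%, 20.3%, 36.3%, 14.9%, 7.98%, and 34.8%. For the slope, 0 became 10, 1, 20, 8 (no filter), and 18, and for 4.4 against 1.7 mg/ml, 0 became 11, 2, 20, 7, and 18. The share of genes was 0.00722% in both, and became 1.45%, 0.881%, 5.86%, 0.465%, and 5.05% for the slope. For 4.4 against 1.7 mg/ml it became 1.73%, 1.06%, 6.63%, 0.505%, and 6.67%. The suspension groups gave 6 in DESeq2 with the block (1.4% of genes) and 0 otherwise. Leaving out a replicate or library gave 2 to 7 calls (11 to 19 with the block) for collagen, 0 to 0 (0 to 4) at 1.7 mg/ml, 0 to 3 (4 to 10) at 2.6, 0 to 1 (1 to 12) at 3.5, 1 to 18 (20 to 29) at 4.4, 0 to 0 (0 to 12) for the slope, 0 to 0 (0 to 13) for 4.4 against 1.7 mg/ml, and 0 to 0 (0 to 0) for suspension. In the same fits 4.47% to 20.6% of all tested genes were called for collagen (19.6% to 37.6% with the block). At 4.4 mg/ml it was 0.751% to 11.8% (18.6% to 29.3%), and for the slope at most 0.00703% (1.36%).

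The log2 fold change of collagen against suspension changed sign for 4 members that were not called: Ifit2 (0.05038 with the block, 0.09442 in DESeq2 with the block), Cmpk2 (0.03282 in DESeq2, 0.01596 with its block, 0.03007 with size factors, 0.02855 with offsets), Ifit3 (−0.001005 with block and offsets), and Parp14. Leaving out a replicate or library gave −0.4713 to 0.4567 for Ifit2, −0.1398 to 0.09966 for Cmpk2, −0.1367 to 0.435 for Ifit3, and −0.337 to 0.06882 for Parp14. Of these fits, the sign changed for Ifit2 without replicate 1 (0.4567, and 0.4063 with the block) and, with the block, without replicate 2 (0.1715), the 4.4 mg/ml replicate 2 library (0.02138), or the replicate 2 library of suspension titled without CCL19 (0.2876). It changed for Cmpk2 without replicate 2 (0.04084, with the block 0.05474), the 4.4 mg/ml library (0.06676), or, with the block, the suspension library (0.09966). For Ifit3 it changed without replicate 1 (−0.1367, with the block −0.08622) and, with the block, without the 4.4 mg/ml library (−0.01032), and for Parp14 without replicate 2 (0.06074, with the block 0.06047) or the suspension library (0.03102, with the block 0.06882). The cause was not tested. Over the described members' alternatives, 252 kept direction and side of the threshold, 57 gained a call, 28 lost it, and 23 changed sign. With DESeq2 size factors the collagen calls over all genes split 1200 higher and 1535 lower, against 1077 and 1713.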
